A study of Homo sapiens with 4 samples.

Results

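R-spondin2 is a secreted WNT agonist, and the comparison described here sets 1 library of wild-type H1 cells given R-spondin2 against 1 library of wild-type control cells across all genes. The H1 line was derived from a human embryo and is pluripotent. Its cells were differentiated toward blood on mAGM-S3, a mouse stromal cell line, R-spondin2 was present at 20 ng/mL for 1 day, and the human cells of both cultures were sorted with an antibody to TRA-1-85 at day 2. These 2 libraries are 2 of the 4 in the series. The other 2 came from untreated LGR4-/- cells of the same H1 line at the same day, 1 library from each of 2 clones, and they are used here for scale. Gene levels were compared as log2(FPKM + 1) for the 12697 of 17894 genes whose mean over the 4 libraries was at least 1 FPKM. A gene was counted as raised or lowered when its level differed at least 1.5-fold on that scale. With 1 library per condition no difference has a replicate check and no p-value was computed, so "rose" and "fell" below mean only past this threshold.

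R-spondins bind LGR4, LGR5 and LGR6 together with the ubiquitin ligases RNF43 and ZNRF3, which otherwise remove Frizzled receptors from the cell surface. Bound ligases are cleared from the membrane, more Frizzled remains, and the response of a cell to WNT ligands grows. In embryonic stem cells leaving pluripotency, WNT together with NODAL and BMP signals drives the primitive streak, from which mesoderm, heart and blood precursors arise, while SOX2 and other epiblast genes are shut off.

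The labelled cell state was checked against marker genes. Early mesoderm markers were present in both wild-type libraries, and the summed level of T, MIXL1, EOMES, MESP1 and APLNR was 965.3 FPKM in the control and 1264 FPKM with R-spondin2. The 6 markers of undifferentiated cells were also still expressed, at a sum of 830.4 FPKM in the control and 622.6 FPKM with R-spondin2. All 5 mesoderm markers were higher and all 6 markers of undifferentiated cells were lower with R-spondin2. Of the latter, ZFP42 was nearly level, at 59.1 FPKM in the control and 58.8 FPKM with R-spondin2. In RNA from a mixed population, fewer cells of a type and less RNA per cell cannot be told apart. The 4 markers of neuroectoderm were each below 1 FPKM in both wild-type libraries, and of 6 blood and endothelial markers CDH5, CD34 and PECAM1 did not exceed 0.47 FPKM in either. The other 3 were low but above 1 FPKM, with RUNX1 at 3.96 and 3.71 FPKM, SPN at 2.67 and 2.31 FPKM and PTPRC at 1.52 and 1.49 FPKM. LGR4, the gene targeted in the clones, was at 21.8 FPKM in the control, 24.3 FPKM with R-spondin2, 7.40 FPKM in clone 1 and 13.95 FPKM in clone 2, so its RNA was lower in both clones but not absent. The low values implied a depth of 8900000 reads in the control library and 8680000 reads in the R-spondin2 library.

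More genes fell than rose. R-spondin2 raised 68 genes, 0.536% of those compared, and lowered 187 genes, 1.47%. By any amount, 47.8% of the genes compared were higher and 51.9% lower, the shares to set beside the list counts below. Of these, 66 raised and 185 lowered genes were outside the heatmaps of the study; the exceptions were FOXF1 and DKK4 among the raised genes and SOX2 and FOXD3 among the lowered ones. The median change over all genes was -0.01 on the log2 scale and the SD across genes was 0.213. Between the 2 LGR4-/- clones, 172 genes were raised at least 1.5-fold in clone 2 (1.35%) and 136 were lowered (1.07%), with an SD of 0.222. The R-spondin2 comparison therefore had about as wide a spread as 2 untreated clones, with the excess on the side of falls.

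**Figure D1:**
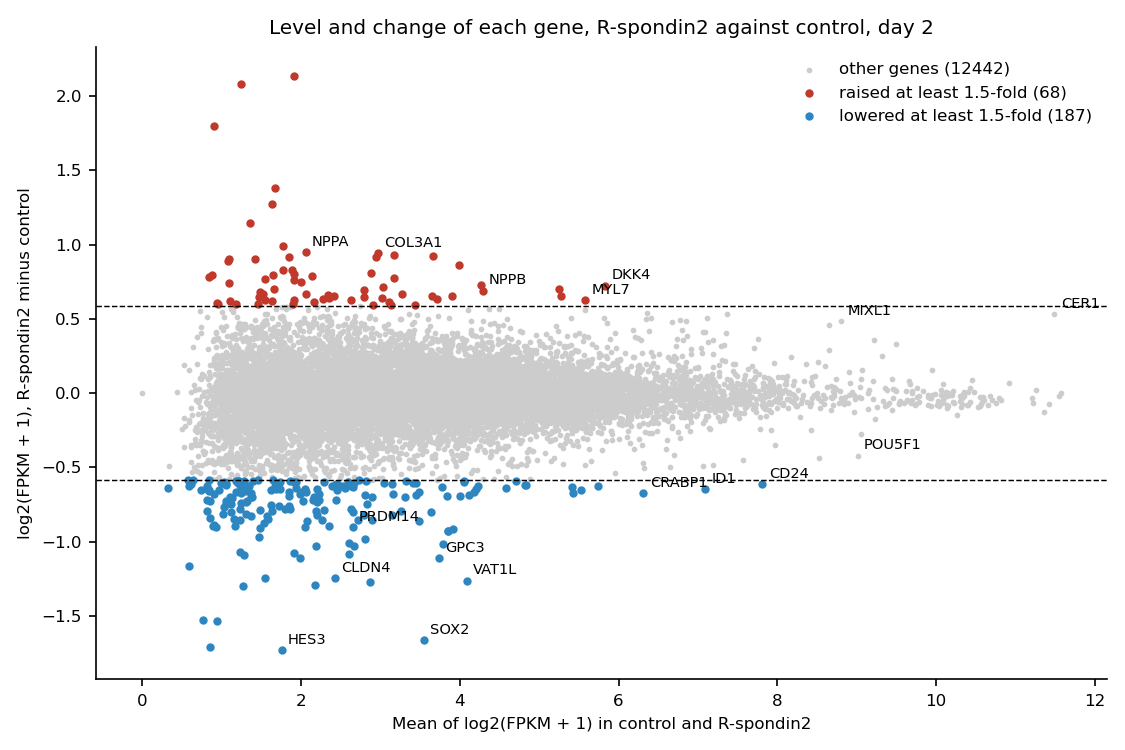
Each point is a gene, with the mean of its log2(FPKM + 1) in the control and R-spondin2 libraries on the x axis and the R-spondin2 minus control difference on the y axis; dashed lines mark 1.5-fold. The 187 lowered genes reach down to HES3 at -1.73, whereas named raised genes such as NPPA and COL3A1 stay below 1 and the points above 1 are read-through, histone and uncharacterised genes.

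The raised genes were weakly expressed. Their median level, as the mean over 4 libraries, was 2.84 FPKM, against 4.28 FPKM for the lowered genes and 10.5 FPKM for all genes. Among the 9029 genes that averaged 5 FPKM or more over the libraries, 22 rose and 82 fell. Among the 671 genes that averaged 100 FPKM or more, 0 rose and 4 fell, while between the clones 8 were higher and 0 were lower in clone 2. Precision was limited by the reads behind each gene. An interval for counting error could be computed for 38 raised and 88 lowered genes, and it excluded no change for 32 and 80 of them. These genes were selected on the same values, so the 2 counts are no separate check of their changes. These intervals (95%, Clopper-Pearson) do not cover the variation between cultures.

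HES3 and SOX2 were among the genes with the most negative changes. HES3, a basic helix-loop-helix repressor of the HES family (NCBI gene 390992), was at 5.15 FPKM in the control and 0.85 FPKM with R-spondin2, against 19.9 FPKM in clone 1 and 13.1 FPKM in clone 2. Its change of -1.73 was the most negative of all genes compared, although it rested on 32 and 5 implied reads, with an interval of the log2 read ratio from -4.36 to -1.27. SOX2 (NCBI gene 6657), which maintains pluripotency together with POU5F1 and later marks neural progenitors, was at 19.9 FPKM in the control and 5.58 FPKM with R-spondin2, against 66.0 and 50.7 FPKM in the clones. Its change was -1.67, from 445 to 122 implied reads, with an interval from -2.13 to -1.54. Both genes were therefore lowest with R-spondin2, intermediate in the control and highest in clone 1. On GRCh38, a later build than the hg19 of the submitters' processing notes, GENCODE places HES3 at chr1:6244192-6245578 and SOX2 at chr3:181711924-181714436, both on the plus strand.

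Of 46 pluripotency and epiblast genes, 42 passed the filter, and 34 were lower and 8 higher with R-spondin2. The median change was -0.27, against -0.01 over all genes, and 6 of the 42 fell and 0 rose past 1.5-fold, beside 1.47% and 0.536% of all genes. These 6 were SOX2, PTPRZ1, PRDM14, USP44, CRABP1 and TERF1. PRDM14, a transcriptional regulator that represses differentiation genes in stem cells, was at 7.59 FPKM in the control and 3.59 FPKM with R-spondin2. PTPRZ1, a receptor tyrosine phosphatase, was at 19.0 and 9.49 FPKM. USP44, a deubiquitinase of the mitotic checkpoint and of histone H2B, was at 8.99 and 4.53 FPKM. The telomere protein gene TERF1 was at 65.3 and 41.9 FPKM, and the retinoic acid binding protein gene CRABP1 at 99.5 and 62.0 FPKM. All 6 were higher in both clones than in either wild-type library, and all 6 were lower in clone 2 than in clone 1.

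The core factors moved less. POU5F1 was at 597.1 FPKM in the control and 445.8 FPKM with R-spondin2 (-0.42), and NANOG at 28.1 and 20.1 FPKM (-0.46). DNMT3B, the de novo DNA methyltransferase of the epiblast, was at 220.6 and 161.3 FPKM (-0.45). ZFP42, at 59.1 and 58.8 FPKM, and L1TD1, at 151.9 and 145.0 FPKM, hardly differed. A few members were on the other side: TDGF1, the NODAL co-receptor, was at 186.4 and 209.1 FPKM, and FGF4 at 13.2 and 16.8 FPKM. The 6 genes past the threshold were thus a minority of a list that was lower in most of its members.

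The neural and neuroectoderm list was mostly silent at day 2, with 23 of 54 genes passing the filter. Of these 23, 16 were lower and 7 higher with R-spondin2, the median was -0.13, and 4 fell (HES3, SOX2, IRX2 and FOXD3), beside 51.9% of all genes that were lower and 1.47% that fell. IRX2, an Iroquois homeobox gene, was at 14.1 FPKM in the control and 7.27 FPKM with R-spondin2. FOXD3, a forkhead factor of the epiblast and neural crest, was at 1.99 and 0.92 FPKM. OTX2 (0.38) and FABP7 (0.37) were the members furthest on the higher side, and neither passed the threshold. In the deposited annotation, process terms for the nervous system were carried by 19 of 128 lowered genes with a named term (14.8%), by 6 of 49 raised genes (12.2%) and by 549 of 8902 genes compared (6.2%). The 19 included LINGO1, NRTN, SLITRK5, RAB3A and SYP. Their share was thus above that of all genes on both sides of the comparison.

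The 15 largest falls among genes averaging 5 FPKM or more and outside the heatmaps spanned several functions. VAT1L, a gene of little known function, was at 25.4 FPKM in the control, 10.0 FPKM with R-spondin2, 50.2 FPKM in clone 1 and 41.1 FPKM in clone 2. GPC3, a heparan sulfate proteoglycan of the cell surface, was at 18.7, 8.11, 42.5 and 31.6 FPKM in the same order, and LECT1, which encodes chondromodulin, at 18.6, 8.71, 57.4 and 40.3 FPKM. IDO1, which degrades tryptophan, was at 6.07, 1.88, 13.0 and 8.86 FPKM. In each of these 4 genes the order was R-spondin2, control, clone 2 and clone 1 from low to high. NMRK2, a nicotinamide riboside kinase, was at 19.0 FPKM in the control and 9.48 FPKM with R-spondin2. LINGO1 and CAMKV, a neuronal membrane protein and a kinase-like protein of synaptic vesicles, were at 7.65 and 8.08 FPKM in the control and at 3.29 and 3.44 FPKM with R-spondin2. PPP2R2B, a regulatory subunit of protein phosphatase 2A, was at 3.50 and 0.90 FPKM. PRR36 was at 5.51 and 2.19 FPKM. NPIPA2 and NARR were also among the 15, but NPIPA2 has near-identical copies and NARR overlaps another gene, so their reads could be shared and their values are uncertain.

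**Figure D2:**
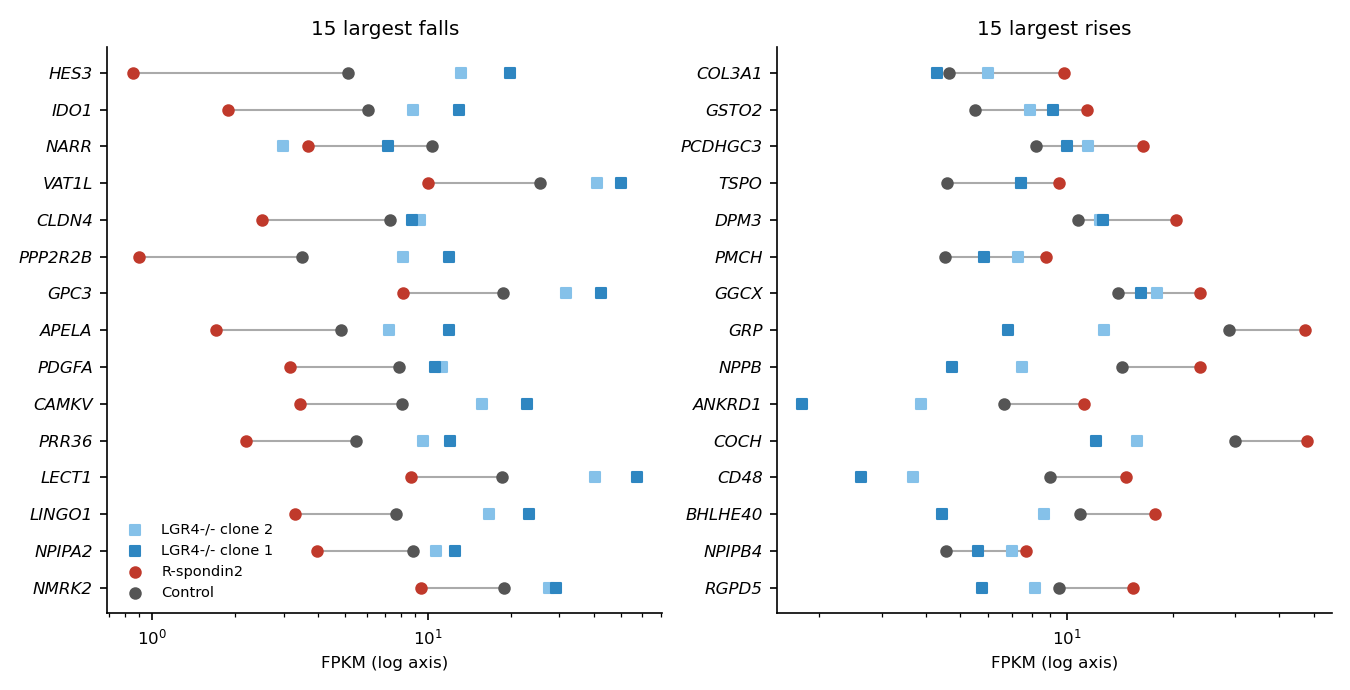
FPKM on a log axis in each of the 4 libraries for the 15 largest falls (left) and the 15 largest rises (right) among genes averaging 5 FPKM or more outside the heatmaps; the grey line joins control and R-spondin2. Among the falls, both clones lie above the control in every gene except NARR, while GRP, NPPB, ANKRD1, COCH, CD48, BHLHE40 and RGPD5 among the rises have both clones below the control.

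Several secreted signalling proteins fell. APELA, the peptide hormone that activates APLNR, was at 4.84 FPKM in the control and 1.71 FPKM with R-spondin2, an interval from -2.05 to -0.95 on 112 and 39 implied reads. APLNR was at 362.5 and 443.6 FPKM (0.29). PDGFA was at 7.84 and 3.17 FPKM (-1.08), whereas its receptor PDGFRA was at 17.13 and 21.97 FPKM (0.34). FGF18 was at 1.57 and 0.69 FPKM (-0.60), and SFRP1, a secreted WNT antagonist, at 28.8 and 18.1 FPKM (-0.64) with an interval from -0.81 to -0.53. SFRP2, of the same family, was just short of the threshold at 73.9 and 50.5 FPKM (-0.54). The ligands APELA and PDGFA were thus lower while the receptors were higher by less than 1.5-fold, a pairing chosen after the values were seen, as was SFRP2.

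Of 45 cell junction and adhesion genes, 40 passed the filter and 3 fell, beside 1.47% of all genes. CLDN4, a tight junction claudin (NCBI gene 1364), was at 7.31 FPKM in the control and 2.50 FPKM with R-spondin2, against 8.78 and 9.34 FPKM in the clones, with an interval from -2.09 to -1.01. ITGA6, the laminin receptor subunit common on stem cells, was at 15.4 and 8.39 FPKM, and PCDH1 at 12.8 and 7.57 FPKM. These were the 3 that fell. None rose, 22 of the 40 were lower and 18 higher, and the median was -0.08, so the list was close to balanced. After these 3 the most negative members were ESRP2 (-0.55), CLDN7 (-0.53) and EPCAM (-0.50), and the most positive ones were ITGA4 (0.47), CDH11 (0.36) and CADM1 (0.36). Over all claudins that passed the filter, a family counted after its values were seen, 10 of 12 were lower, beside 51.9% of all genes. Their median was -0.28, and CLDN11 (0.11) and CLDN1 (0.10) were higher. SCNN1A, an epithelial sodium channel subunit at 19.4 and 11.6 FPKM, CRB3, a polarity protein at 6.66 and 3.97 FPKM, CD24 at 277.4 and 181.0 FPKM and ERBB2 at 56.8 and 35.8 FPKM also fell. These 4 were picked after their values were seen, except CD24, which with ID1 had the highest level among the lowered genes.

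The list of epithelial-mesenchymal transition genes held 0 raised and 0 lowered members, with 16 of 23 higher and a median of 0.10. MMP14 (98.5 and 126.7 FPKM), VIM (523.9 and 670.5 FPKM), ZEB2 (3.74 and 4.95 FPKM) and SNAI1 (37.8 and 45.7 FPKM) were higher. GRHL2, an epithelial transcription factor, was lower at 3.49 and 2.24 FPKM, as were CDH1 and EPCAM. Differences in this list were thus below 1.5-fold in both directions.

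Lateral plate, cardiac and extraembryonic mesoderm genes formed the list with the highest median. Like the other lists, it was chosen with earlier results of these data known. Of its 30 members 20 passed the filter, all 20 were higher with R-spondin2, and the median change was 0.37, against -0.01 over all genes, of which 47.8% were higher. That all were higher depends on the filter: HEY1 (1.37 and 0.73 FPKM, -0.45) and HOPX (0.83 and 0.41 FPKM, -0.38) were lower but averaged below 1 FPKM over the 4 libraries, and HEY1 would pass on the mean of the wild-type libraries. Without the 5 heatmap genes in the list, all 15 remaining genes were higher and the median was 0.35. MYL7, the atrial myosin light chain (NCBI gene 58498), was at 37.5 FPKM in the control and 58.4 FPKM with R-spondin2, against 7.34 and 13.2 FPKM in the clones, with an interval from 0.38 to 0.90. COL3A1 was at 4.65 and 9.86 FPKM with 4.29 and 6.0 FPKM in the clones, and FOXF1, a forkhead factor of lateral mesoderm, at 3.96 and 6.66 FPKM with 0.60 and 1.23 FPKM in the clones. These were the 3 members that rose. BMP4 (67.4 and 98.3 FPKM), HAND1 (70.1 and 99.9 FPKM), GATA6 (140.6 and 186.8 FPKM) and MYL4 (26.3 and 34.7 FPKM) were higher by less than 1.5-fold.

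A few further genes known from the heart, picked after their values were seen and not as a list, rose. NPPB and NPPA, the natriuretic peptide genes, were at 14.4 and 2.00 FPKM in the control and at 23.8 and 4.80 FPKM with R-spondin2. The interval ran from 0.33 to 1.12 for NPPB and from 0.39 to 2.27 for NPPA, the latter on 15 and 36 implied reads. ANKRD1, a cardiac ankyrin repeat protein and target of YAP, was at 6.67 and 11.2 FPKM, with 1.79 and 3.87 FPKM in the clones. CTGF and CYR61, further YAP targets in the list of immediate early and stress genes, were at 57.7 and 49.3 FPKM and at 49.1 and 46.5 FPKM, on the lower side. ANKRD1 was the 1 gene of the 30 in that list that rose, 0 fell, and its median was 0.03. Heart and muscle development terms of the deposited annotation were carried by 3 of 49 raised genes (6.1%), 10 of 128 lowered genes (7.8%) and 309 of 8902 genes compared (3.5%). Of 12 myosin light and heavy chain genes, a family counted after its values were seen, 8 were higher and 4 lower with a median of 0.04, and MYL1 (-0.48) and MYL10 (-0.44) were the most negative.

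Primitive streak and nascent mesoderm genes were higher in 25 of 33 cases, beside 47.8% of all genes, with a median of 0.14. However, 0 rose and 1, CDX4, fell, beside 1.47% of all genes that fell. TBX3 (13.1 and 19.8 FPKM, 0.56), MESP1 (38.5 and 57.3 FPKM, 0.56), CER1 (2395 and 3467 FPKM, 0.53), GSC (46.2 and 66.1 FPKM, 0.51) and HAS2 (115.7 and 164.4 FPKM, 0.50) came closest to the threshold from below. The caudal genes went the other way. CDX2 was at 8.80 and 5.89 FPKM (-0.51), CDX4 at 1.21 and 0.41 FPKM (-0.65) and CDX1 at 24.4 and 21.6 FPKM (-0.16), and the posterior WNT ligands WNT8A (-0.45) and WNT3A (-0.31) were lower as well. NKX1-2, a homeobox gene of the caudal epiblast, fell from 19.7 to 10.0 FPKM, with an interval from -1.19 to -0.78. HOXB3 (0.52) and HOXB6 (0.45) were nevertheless higher, so the posterior genes did not share 1 direction. Most HOX genes left out by the filter, which also used the clones, were higher too at low levels. HOXB5 was at 0.67 and 1.94 FPKM, HOXC6 at 0.33 and 1.23 FPKM and HOXB4 at 0.66 and 1.24 FPKM. Among those left out, HOXB9 was lower, at 0.37 and 0.25 FPKM. NKX1-2 was singled out after its value was seen.

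Among the components of the R-spondin receptor complex none passed 1.5-fold. LGR5 was at 36.7 FPKM in the control and 46.3 FPKM with R-spondin2 (0.33), RSPO3 at 4.27 and 5.93 FPKM (0.40), ZNRF3 at 7.61 and 7.28 FPKM (-0.06), RNF43 at 1.77 and 1.28 FPKM (-0.28) and RSPO4 at 3.42 and 3.10 FPKM (-0.11). RSPO1, RSPO2 and LGR6 were below the filter. Of 26 WNT target and feedback genes 17 were higher, the median was 0.07, and 1, DKK4, rose. DKK4, a secreted WNT inhibitor, was at 43.3 FPKM in the control and 72.1 FPKM with R-spondin2, against 43.0 and 57.0 FPKM in the clones, with an interval from 0.54 to 0.94. AXIN2, the common readout of beta-catenin signaling, was at 20.2 and 19.3 FPKM, with an interval of the log2 read ratio from -0.21 to 0.09. SP5 was at 107.7 and 106.4 FPKM and LEF1 at 8.95 and 10.3 FPKM. Most direct WNT targets were thus close to their control level at this time.

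The BMP list was higher in 22 of 29 genes, beside 47.8% of all genes, with a median of 0.15. Its sole member past the threshold was on the opposite side. ID1, an inhibitor of basic helix-loop-helix factors and a direct BMP target, was at 170.1 FPKM in the control and 108.2 FPKM with R-spondin2, against 193.3 and 176.2 FPKM in the clones. ID3 (125.6 and 111.9 FPKM) and ID4 (3.93 and 3.01 FPKM) were lower and ID2 (41.1 and 41.8 FPKM) was level, whereas BMP2 (71.6 and 95.8 FPKM), BMP4, SMAD6 (20.4 and 28.0 FPKM) and MSX2 (5.92 and 8.09 FPKM) were higher. In the NODAL list 12 of 21 genes were higher, with a median of 0.08, and in the FGF and ERK list 15 of 27, with a median of 0.04 and FGF18 as the 1 gene that fell. In the NOTCH list 11 of 17 were lower, with a median of -0.15 and HES3 as the 1 that fell, while HES1 was at 35.4 and 42.9 FPKM.

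**Figure D3:**
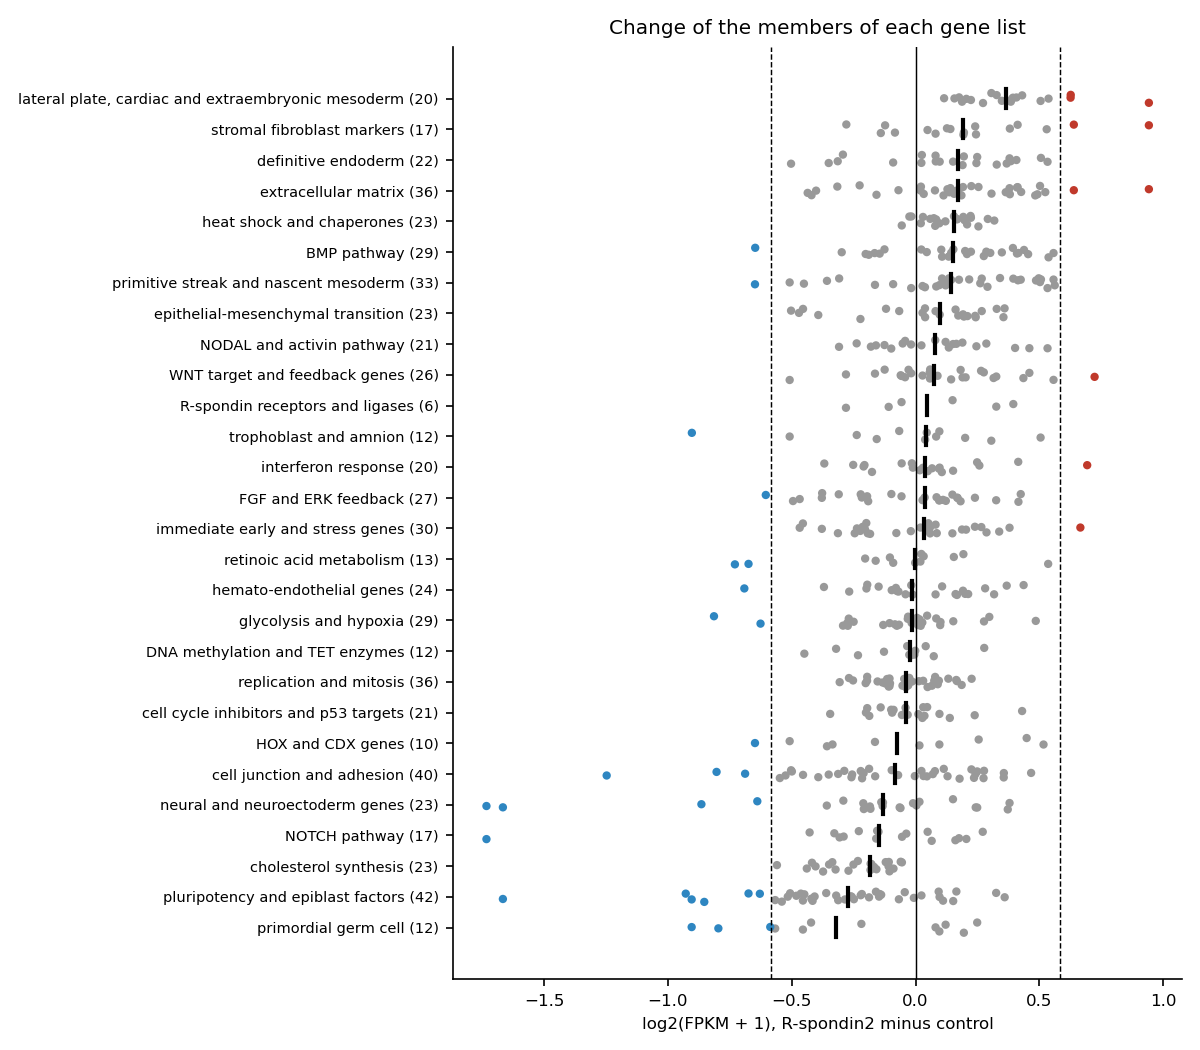
Each row is a gene list with the number of members that passed the filter in parentheses; points are members, on the x axis the R-spondin2 minus control difference in log2(FPKM + 1), black bars are medians and dashed lines mark 1.5-fold, with raised members in red and lowered members in blue. The lateral plate list lies entirely above 0 and the cholesterol synthesis list entirely below 0, while most other lists straddle it.

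Extracellular matrix genes were higher in 29 of 36 cases, beside 47.8% of all genes, with a median of 0.17. LUM and COL3A1 rose, beside 0.536% of all genes, and COL3A1 is also in the lateral plate list. LUM, the small proteoglycan lumican, was at 5.49 FPKM in the control and 9.11 FPKM with R-spondin2, against 0.16 and 1.45 FPKM in the clones, with an interval from 0.43 to 1.04. COL3A1, the fibrillar collagen III chain, had an interval from 0.86 to 1.32 on 229 and 474 implied reads. COL5A1 (91.3 and 128.8 FPKM), COL5A2 (96.5 and 135.3 FPKM), the hyaluronan synthase HAS2, the hyaluronan link protein HAPLN1 (61.5 and 83.0 FPKM) and biglycan BGN (8.22 and 12.3 FPKM) were higher by less than 1.5-fold. The most negative members were COL2A1 (7.48 and 5.27 FPKM) and COL9A3 (23.3 and 17.2 FPKM). Collagens of cartilage did not share 1 direction, since COL11A2 (0.36), COL11A1 (0.25) and COL9A2 (0.12) were higher. TIMP3, an inhibitor of matrix proteases, rose from 5.13 to 8.24 FPKM, just inside the threshold. Fibroblasts such as those of the stroma express many of these genes: 13 of 17 stromal fibroblast markers were higher with R-spondin2, with a median of 0.19, and the summed level of the 8 defining markers was 237.8 FPKM in the control and 297.4 FPKM with R-spondin2. Of those 8, POSTN and DCN did not exceed 0.16 FPKM in either wild-type library and THY1 was lower, at 44.0 and 36.1 FPKM. The cells were sorted for a human antigen, but how many stromal cells remained was not measured. Their part in the result was not tested.

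Further rises lay outside the lists above. GRP, the gastrin-releasing peptide gene, was at 28.8 FPKM in the control and 47.4 FPKM with R-spondin2, with 6.85 and 12.8 FPKM in the clones, and COCH, which encodes the matrix protein cochlin, at 29.9 and 47.8 FPKM, with 12.2 and 15.9 FPKM in the clones. BHLHE40, a circadian and hypoxia-responsive repressor, was at 10.9 and 17.8 FPKM, with 4.43 and 8.65 FPKM in the clones. CD48, an immunoglobulin-like surface protein of leukocytes, was at 8.97 and 14.7 FPKM, with 2.63 and 3.67 FPKM in the clones. In these 4 genes both clones lay below the control and clone 2 lay above clone 1. A different pattern was seen in TSPO, the mitochondrial translocator protein (4.59 and 9.55 FPKM), DPM3, a dolichol-phosphate mannose synthase subunit (10.7 and 20.4 FPKM), GGCX, the vitamin K-dependent carboxylase (14.0 and 23.9 FPKM), and GSTO2, a glutathione transferase (5.52 and 11.4 FPKM). In these the control was the lowest of the 4 libraries and the clones lay between it and R-spondin2. PMCH, the melanin-concentrating hormone precursor, was at 4.54 and 8.72 FPKM. PCDHGC3 (8.17 and 16.4 FPKM) shares its last exons with the other gamma protocadherins, and NPIPB4 and RGPD5 belong to near-identical families, so their values are uncertain. OAS1 was the 1 of 20 interferon response genes that rose, at 4.46 and 7.83 FPKM, and the median of that list was 0.04.

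Part of the largest ratios concerned transcripts that are hard to count. Of the 6 genes raised at least 2-fold, none was an ordinary single gene. TMEM189-UBE2V1 (0.79 and 6.88 FPKM) and ABHD14A-ACY1 (0.15 and 3.88 FPKM, with 0 FPKM in clone 2) are read-through transcripts that share exons with their parent genes. LOC102723360 was listed at 0 in the control and in clone 1, and LOC101060389 was at 0.98 and 4.15 FPKM. The remaining 2 were the histone genes HIST1H4I (0.99 and 3.82 FPKM) and HIST1H2BE (0.73 and 2.82 FPKM). Of 33 histone genes that passed the filter, a family counted after its values were seen, 8 rose and 4 fell, beside 0.536% and 1.47% of all genes, with a median of 0.03. HIST1H2AI, PLGLB2, PCP4 and C16orf92 were listed at 0 with R-spondin2, against 2.27, 1.88, 1.24 and 0.56 FPKM in the control. Read-through, histone, LOC and orf genes made up 17 of 68 raised and 13 of 187 lowered genes. Their share among all genes compared was not computed, so neither count can be set beside it.

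Genes of the cholesterol list were lower without exception. The list was chosen with earlier results of these data known, so its shared direction is no separate check. Of 24 listed genes 23 were found and passed the filter, all 23 were lower with R-spondin2, and the median change was -0.18, against -0.01 over all genes, of which 51.9% were lower. None fell past 1.5-fold. INSIG1, which retains the sterol sensor SCAP in the endoplasmic reticulum and is itself induced when sterols are low, was at 16.0 FPKM in the control and 10.5 FPKM with R-spondin2 (-0.56), close to the threshold. HMGCS1, an early enzyme of the mevalonate pathway, was at 62.9 and 50.1 FPKM. SQLE, the squalene epoxidase, was at 47.4 and 37.0 FPKM, with an interval from -0.48 to -0.23. Later enzymes included TM7SF2 (26.02 and 18.93 FPKM) and HSD17B7 (17.1 and 12.6 FPKM), and the smallest difference was at CYP51A1 (32.2 and 31.0 FPKM). In the clones all 23 genes were above both wild-type libraries, and between the clones 15 were higher and 8 lower in clone 2, with a median of 0.04, so the list did not share 1 direction there.

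**Figure D4:**
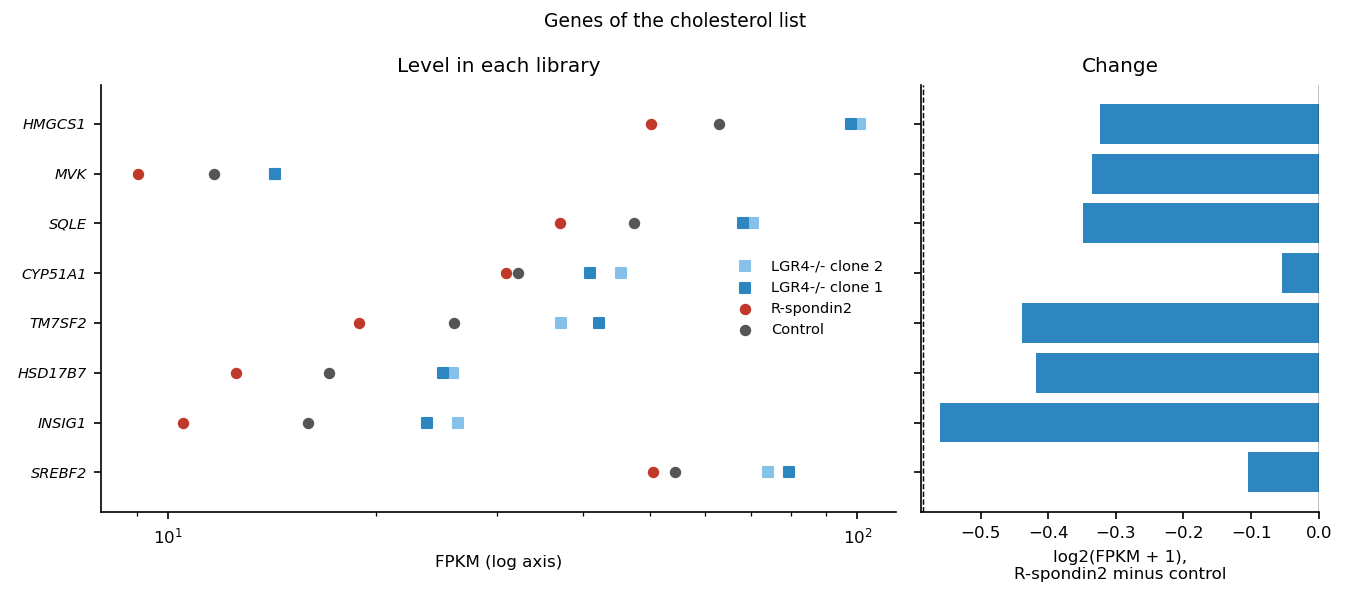
Left, FPKM on a log axis in each of the 4 libraries for the 8 genes of the cholesterol list named in the text; right, bars of the R-spondin2 minus control difference in log2(FPKM + 1), with a dashed line at 1.5-fold lower. Every bar is below 0, from CYP51A1 at -0.05 to INSIG1 at -0.56.

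Most promoters of this list share a sequence feature, which is a property of the list and not a result of R-spondin2. RefSeq promoters were matched for 9839 of the 12697 genes and 17 of these 23. In the 250 bases before the start, the letters CCAAT, the recognition core of the factor NF-Y, were present on either strand in 14 genes (82.4%), against 3442 of all 9839 genes (35%). They were present in 27.9% of 43 raised and 29.1% of 127 lowered genes with a promoter, both below the share of all genes. The 4 promoters below belong to the genes with the lowest changes among those that hold the letters, apart from MVK, with each match in capitals, in all 4 as ATTGG, the same box on the other strand. Positions are on GRCh38.p14 from RefSeq, at chr7:155297628-155297877 (plus strand) for INSIG1, chr11:65111622-65111871 (plus) for TM7SF2, chr1:162790452-162790701 (plus) for HSD17B7 and chr5:43313413-43313662 (minus) for HMGCS1.
INSIG1: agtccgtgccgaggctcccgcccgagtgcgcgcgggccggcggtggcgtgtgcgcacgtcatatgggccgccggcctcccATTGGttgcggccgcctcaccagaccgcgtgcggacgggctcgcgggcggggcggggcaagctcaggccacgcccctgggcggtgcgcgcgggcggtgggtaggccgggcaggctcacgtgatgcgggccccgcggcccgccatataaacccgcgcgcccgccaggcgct
TM7SF2: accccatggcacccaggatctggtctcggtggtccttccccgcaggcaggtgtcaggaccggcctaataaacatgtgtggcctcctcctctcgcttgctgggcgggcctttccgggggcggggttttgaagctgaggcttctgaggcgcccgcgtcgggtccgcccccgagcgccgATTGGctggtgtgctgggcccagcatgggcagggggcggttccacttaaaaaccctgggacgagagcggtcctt
HSD17B7: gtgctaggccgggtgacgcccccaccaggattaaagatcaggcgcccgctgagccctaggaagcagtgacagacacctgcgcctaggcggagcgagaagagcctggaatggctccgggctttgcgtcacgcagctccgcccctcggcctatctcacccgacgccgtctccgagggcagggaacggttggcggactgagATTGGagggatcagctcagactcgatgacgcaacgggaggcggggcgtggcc
HMGCS1: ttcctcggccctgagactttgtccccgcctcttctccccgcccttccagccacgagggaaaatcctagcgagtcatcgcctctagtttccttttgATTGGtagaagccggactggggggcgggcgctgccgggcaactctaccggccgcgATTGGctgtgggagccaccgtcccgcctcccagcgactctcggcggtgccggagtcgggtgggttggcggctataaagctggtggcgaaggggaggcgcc
The match lies 170 bases before the start in INSIG1, 74 in TM7SF2 and 52 in HSD17B7, and HMGCS1 holds 2 matches, at 155 and 100 bases. The sterol regulatory element, searched as 1 fixed sequence on both strands, was found in 1 of the 17 genes, SREBF2 (5.88%), against 5 of 9839 (0.0508%). A match describes the letters of this window and does not show that a factor binds there.

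The same windows were searched on both strands for CTTTGAT or CTTTGAA, forms of the element bound by the TCF and LEF partners of beta-catenin. They were present in 3 of 43 raised genes (6.98%), in 3 of 127 lowered genes (2.36%) and in 323 of 9839 genes compared (3.28%). The raised genes were PMCH, RHOH and MSANTD3-TMEFF1. PMCH is the 1 of them among the 15 largest rises, and its window at chr12:102197834-102198083 on GRCh38.p14 (minus strand) is shown with the match in capitals, 61 bases before the start.
PMCH: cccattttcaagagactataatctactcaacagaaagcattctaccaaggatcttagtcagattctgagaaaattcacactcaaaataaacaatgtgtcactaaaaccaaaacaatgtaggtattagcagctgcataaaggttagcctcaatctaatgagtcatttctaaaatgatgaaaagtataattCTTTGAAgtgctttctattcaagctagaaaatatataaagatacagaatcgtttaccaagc
With 3 genes on each side, the shares rest on very few promoters. The octamer ATTTGCAT was found in 0 of 43 raised and 1 of 127 lowered genes, CDX4, against 1.21% of genes compared.

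The 2 LGR4-/- clones give a difference that shares no library with the R-spondin2 comparison, and the raised and lowered genes were set on it. Clone 2 had more LGR4 RNA than clone 1, and the clones are separate lines rather than a treated and an untreated culture. Clone 2 also had more early mesoderm marker RNA, summing to 536.7 FPKM against 342.7 FPKM in clone 1. Markers of undifferentiated cells summed to 1407 FPKM in clone 2 and 1519 FPKM in clone 1, though NANOG and ZFP42 were higher in clone 2. Which difference the gene order follows was not tested. The filter also used the clones, and some lowered genes passed only through them. C16orf92 was at 2.54 FPKM in clone 1 against 0.56 FPKM in the control. TMEM151B was at 4.32 FPKM in clone 1 against 0.91 FPKM in the control. With the mean over the 2 wild-type libraries 168 genes were lowered, not 187. The shares below were not recomputed without such genes, so they are not independent of the clone values. Of the 187 genes lowered by R-spondin2, 140 (74.9%) were lower in clone 2 than in clone 1, against 50.4% of all genes, and the median difference was -0.22, against -0.0027 over all genes. Of the 68 raised genes, 46 (67.6%) were higher in clone 2, against 49.2% of all genes, with a median of 0.22. For genes averaging 5 FPKM or more the shares were 70 of 82 lowered genes (85.4%) and 18 of 22 raised genes (81.8%), against 48.3% and 51.6% of all genes at that level. Past 1.5-fold in the clone pair were 22 of the lowered genes on the lower side and 13 of the raised genes on the higher side. HES3, IDO1, APELA, LECT1 and PRDM14 were among the lowered genes with this order, while CLDN4, PDGFA and NKX1-2 were slightly higher in clone 2. Without the 6 pluripotency genes the lowered share was 134 of 181 (74.0%). Removing 6 of 187 genes could change this share little, and FOXD3, an epiblast factor, remained among the 181. The share therefore does not separate the clone order from that of epiblast genes.

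**Figure D5:**
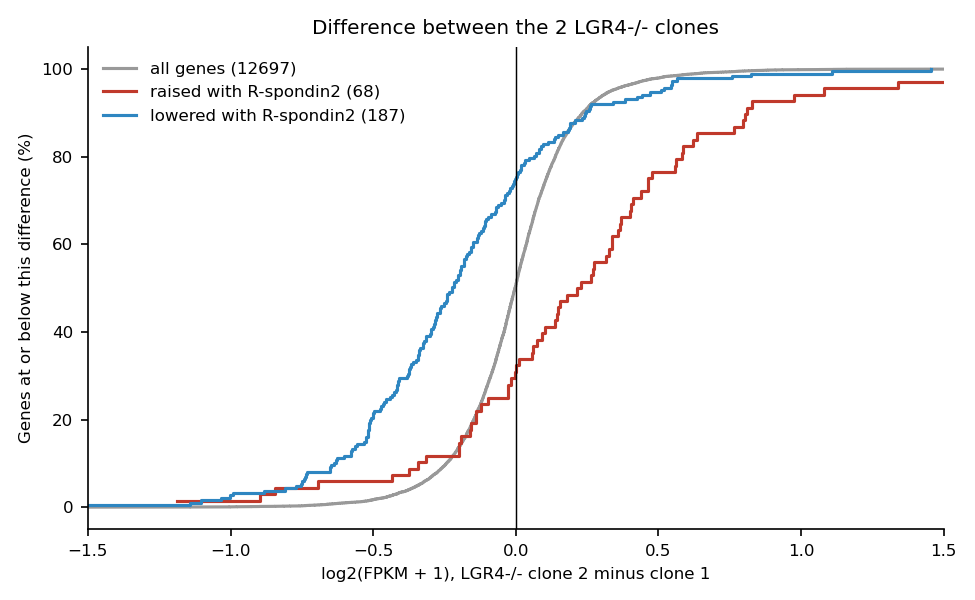
Cumulative share of genes (y axis, percent) at or below each LGR4-/- clone 2 minus clone 1 difference in log2(FPKM + 1) (x axis, shown from -1.5 to 1.5) for all 12697 genes and for the genes raised and lowered by R-spondin2. The curve of the 187 lowered genes lies to the left of that of all genes, and the curve of the 68 raised genes to the right over most of its length.

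The genes next to the threshold show how much the counts depend on it. Just inside were TIMP3 (0.592), GATM (0.596) and PLCXD3 (0.596) among the raised genes and RRAGD, HIST3H2BB and ABHD16B (all -0.585) among the lowered ones, these 3 at exactly 1.5-fold. Just outside were GMPR (0.584), VSTM2L (0.583) and CREB3L1 (0.582) on the higher side and ST20 (-0.584), RGMA (-0.583) and RAMP2 (-0.583) on the lower side. At a lower threshold of 0.32 on the log2 scale 543 genes rose (4.28%) and 809 fell (6.37%), and between the clones 687 were higher (5.41%) and 739 lower (5.82%) in clone 2. At 2-fold 6 genes rose (0.0473%) and 22 fell (0.173%), and between the clones 22 were higher (0.173%) and 10 lower (0.0788%).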

How the data were processed

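RNA-seq was measured in 4 libraries of human H1 cells sorted by TRA-1-85 after 2 days on mAGM-S3 stroma: wild-type control, wild-type with R-spondin2 and 2 LGR4-/- clones, 1 library each. Libraries were made with a TruSeq RNA kit, which does not mark strand. The deposited values are FPKM per gene, computed by the authors; the submitters' processing notes name BWA, Bowtie and RSEM and hg19, with no role or version. FPKM are not counts, so no count model was used.

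Genes averaging 1 FPKM or more over the 4 libraries were kept, and differences were taken on log2(FPKM + 1), which understates the change of low genes; raised and lowered mean at least 1.5-fold. Members of 28 gene lists and the lists themselves were chosen with earlier results of these data known. Named genes were the 15 largest rises and falls among genes averaging 5 FPKM or more (outside the study's heatmaps and without read-through, LOC, orf and histone genes), list members past 1.5-fold, up to 4 other members of each list by level or size of change, the 2 raised and 2 lowered genes of highest level, the receptor complex, genes at the threshold, and read-through, LOC, orf and histone genes past 2-fold; any other gene was named after its value was seen. Implied reads were FPKM times transcript length (GENCODE 29, 8068 single-transcript genes) times a depth at which low values (below 0.6 FPKM, transcripts below 1500 bases) lay closest to whole reads: 77.4% lay within 0.2 of a whole read in the control, against 40.1% with lengths shuffled. Intervals needed at least 10 implied reads in both libraries together. They, like all values from 1 library, cover counting error only. The steps were tested on simulated data. Python 3.11.15, numpy 2.4.6, scipy 1.17.1 and pandas 2.3.3 were used. Samples were grouped by their labels. The alternatives were a pseudocount of 0.1, other filters, rescaling, thresholds of 2-fold and 0.32 log2 units and, added after seeing the data, lists without heatmap genes. Promoters came from RefSeq GRCh38.p14; no coordinates were converted between builds. Some members of the cholesterol list are not reported singly here.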

Additional observations from a re-analysis of the deposited data

How the results depend on the processing

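With 1 library per condition, neither counts nor directions could be checked between cultures. No paired analysis was possible because the groups hold 1 library each and no test was run. The 68 raised and 187 lowered genes became 192 and 418 with a pseudocount of 0.1, 22 and 82 among genes averaging 5 FPKM or more, 6 and 22 at 2-fold, and 543 and 809 at 0.32 log2 units; without a filter 107 rose and 238 fell. With the mean over the 2 wild-type libraries they were 69 and 168, and after rescaling by median ratio 74 and 177. Lowered genes outnumbered raised genes under each of these 7 settings. Of 168 list medians recomputed, 160 moved by less than 0.1. The other 8 were primordial germ cell genes (-0.22 without a filter, -0.22 with the wild-type mean and -0.42 without heatmap genes, against -0.32), HOX and CDX genes (0.15, 0.14 and, at 5 FPKM, -0.34, against -0.07), R-spondin receptors (0.15 at 5 FPKM) and hemato-endothelial genes (0.12 at 5 FPKM). Medians also changed sign for R-spondin receptors and p53 targets without a filter, trophoblast genes at 5 FPKM and without heatmap genes, and retinoic acid genes after rescaling. None of these lists, nor HOX and CDX or hemato-endothelial genes, has 1 direction under all settings. Of 180 named genes, 33 moved by more than the SD across genes with a pseudocount of 0.1, and 0 reversed. Genes at a few FPKM, histone genes among them, rest on few reads, and their calls are limited by depth.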

Other observations

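In the heat shock and chaperone list 20 of 23 genes were higher with R-spondin2, beside 47.8% of all genes. The median was 0.16 and no gene passed 1.5-fold. BAG3 was at 36.0 FPKM in the control and 45.1 FPKM with R-spondin2, HSPA5 at 306.2 and 351.4 FPKM, and HSP90AB1 at 1272 and 1258 FPKM. The same list was higher in clone 2 than in clone 1 in 21 of 23 genes, with a median of 0.15. Replication and mitosis genes were lower in 23 of 36 cases with a median of -0.04; GINS2 (53 and 42.67 FPKM) and MCM2 (92.9 and 76.9 FPKM) were among the lower ones and CDK1 (59.1 and 69.3 FPKM) among the higher ones. The p53 target list had a median of -0.04 and the glycolysis and hypoxia list -0.02, in which ADM (22.4 and 14.2 FPKM) and ANKRD37 (2.27 and 0.86 FPKM) fell while P4HA1 (13.9 and 19.9 FPKM) was higher.

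Definitive endoderm genes were higher in 17 of 22 cases with a median of 0.17, and the 2 directions split by gene: GATA6, GSC, CER1 and OTX2 (42.0 and 54.9 FPKM) were higher, SOX17 was level at 47.1 and 49.9 FPKM, and EPCAM and CLDN6 were lower. Hemato-endothelial genes had a median of -0.01, with KDR at 34.4 and 34.1 FPKM; NFE2, an erythroid and megakaryocytic factor, fell from 3.57 to 1.83 FPKM. Among trophoblast genes KRT7 fell from 1.60 to 0.39 FPKM on 25 and 6 implied reads, while CGA, GABRP, VTCN1 and TFAP2A were below 1 FPKM in both wild-type libraries. The 12 primordial germ cell genes that passed the filter had the most negative median of the 28 lists, -0.32, with 7 lower and 5 higher. Of the 12, 3 fell, beside 1.47% of all genes: PRDM14, PDPN (11.7 and 6.29 FPKM) and SOX15 (7.11 and 4.40 FPKM), the first of which is also in the pluripotency list. SOX17, TFAP2C and PRDM1 were not lower. Of 13 retinoic acid metabolism genes CRABP1 and the reductase DHRS3 (2.20 and 0.93 FPKM) fell, beside 1.47% of all genes. CYP26A1, which degrades retinoic acid, was at 135.6 and 197.0 FPKM (0.54), and CRABP2 was level at 279.5 and 279.2 FPKM. Of 12 DNA methylation genes 9 were lower, with a median of -0.02, DNMT3A at 38.3 and 30.5 FPKM, and DNMT1 level at 54.9 and 54.2 FPKM. The 80 cytosolic ribosomal protein genes, a family counted after its values were seen, had a median of -0.03 and ranged from -0.11 to 0.39.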
